A study of Mus musculus with 15 samples.

Results

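ATP-binding cassette (ABC) transporters are membrane proteins that couple the hydrolysis of ATP to the movement of lipids, sterols, bile acids, drugs, conjugated metabolites and peptides. In mammals they are grouped by sequence into subfamilies A to G, of which E and F lack membrane-spanning domains and act in translation. Genes were taken as members where the symbol in the deposited count files consisted of Abc, a subfamily letter from a to g and a number, with or without a closing letter. This gave 50 of the 78298 genes listed, with 16 in subfamily A, 10 in B, 10 in C, 4 in D, 1 in E, 3 in F and 6 in G. Of these, 37 passed the filter on low counts and were tested among 17560 genes, and 13 were not tested because too few reads were counted. A further 3 mouse genes of the superfamily carry other symbols (Tap1, Tap2 and Cftr) and are described separately at the end.

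In the absorptive epithelium of the small intestine, ABC proteins of the brush border (ABCG5 with ABCG8, ABCB1, ABCG2 and ABCC2) return sterols, drugs and conjugates to the lumen, whereas ABCA1 and ABCC3 lie on the side facing the blood. Smaller members of subfamilies B and D, which work as dimers, serve mitochondria, lysosomes and peroxisomes. Their mRNA levels are described here, which are not measures of protein or transport activity.

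The 15 libraries hold poly-A RNA from mouse small intestinal organoids in 5 conditions of 3 libraries each, made to compare organoids overexpressing the transcription factor SOX9 with a control, in a budding and later in a spheroid shape. Organoids were grown from crypts of adult female C57BL/6J mice and transduced with lentiviral constructs under the L30 promoter, with 1 stable, antibiotic-selected line for each construct. The control Halo-NLS carried L30prom_V5-Halo-GDGAGLIN-NLS_IRES_Puro, the nuclear-localized tag alone. SOX9-Halo_budding carried L30prom_Sox9-GDGAGLIN-Halo-V5_IRES_Puro and SOX9-mEGFP_budding carried L30prom_Sox9-GDGAGLIN-mEGFP-V5_IRES_Puro, that is SOX9 fused to a HaloTag or to a green fluorescent protein. The spheroids were later passages of these lines after a second transduction, SOX9-Halo_spheroid with L30prom_H2B-GDGAGLIN-mEGFP-V5_IRES_Zeo and SOX9-mEGFP_spheroid with L30prom_H2B-GDGAGLIN-mScarletI-V5_IRES_Neo. Spheroid shape therefore cannot be told apart from passage, from the second construct and its selection, and a difference between the tags cannot be told apart from one between the lines. The paper orders the samples by progress toward the spheroid shape, which went with time in culture. In each state it places SOX9-mEGFP before SOX9-Halo. A difference between the spheroids of the lines therefore also cannot be told apart from passage, spheroid progress or the second construct. The replicates are described as biological, each pooled from several wells of a line, so p-values measure the spread between harvests of 1 line.

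Sox9, counted from the endogenous gene and the transgene together, averaged 529.7 normalized counts in Halo-NLS, 9647 in SOX9-mEGFP_budding, 6237 in SOX9-Halo_budding, 16434 in SOX9-mEGFP_spheroid and 13389 in SOX9-Halo_spheroid, and it was called higher than in Halo-NLS in all 4. SOX9-Halo_budding replicate 1 stood apart, with 1336 against 10537 and 6838 in replicates 2 and 3. Without it 19 members were called from budding to spheroid in the SOX9-Halo line and 0 in SOX9-Halo_budding against Halo-NLS, beside 21 and 0 with it. Normalized counts are read counts scaled to a common effective library size. Each library held 28062722 to 40559766 counts on genes, of which the 50 members together took 0.188% to 0.336%. The number of genes with a count was 40375 in Halo-NLS replicate 3 and 24214 to 34646 in the other libraries, and all 50 members had a count in that replicate against 35 to 45 elsewhere. Values of several members also differed between Halo-NLS replicate 1 and the other 2 control libraries, and they are given per library where this bears on a comparison.

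Summed over the 50 members as FPKM, that is counts scaled to library depth and canonical transcript length, the ABC transcript level was 671 ± 94.0 in Halo-NLS, 638 ± 98.8 in SOX9-mEGFP_budding and 659 ± 18.9 in SOX9-Halo_budding (mean ± SD, n = 3 each). It was 458 ± 10.6 in SOX9-mEGFP_spheroid and 408 ± 2.08 in SOX9-Halo_spheroid, below every budding or control library. The sterol exporter genes Abcg5 and Abcg8 together held 27.4 ± 3.12% of this sum in Halo-NLS, 17.9 ± 3.81% in SOX9-mEGFP_budding, 22.1 ± 5.03% in SOX9-Halo_budding, 1.69 ± 1.05% in SOX9-mEGFP_spheroid and 0.0217 ± 0.0105% in SOX9-Halo_spheroid. Abcc2 held 8.12 ± 0.780% in SOX9-Halo_budding against 0.0177 ± 0.0138% in SOX9-Halo_spheroid, and Abcb1a 12.0 ± 3.87% against 0.0251 ± 0.0175%. In the SOX9-mEGFP line Abcc2 went from 8.64 ± 0.509% to 2.36 ± 0.589% and Abcb1a from 12.1 ± 2.24% to 2.85 ± 1.31%. The share of Abcc3 went from 3.90 ± 1.42% to 11.0 ± 2.22% in the SOX9-Halo line and from 3.95 ± 1.85% to 16.1 ± 2.96% in the SOX9-mEGFP line. Abcc1, Abcc4 and Abcc5 together, exporters found in many tissues, held 1.84 ± 0.491% of the sum in SOX9-Halo_budding, 9.38 ± 1.41% in SOX9-mEGFP_spheroid and 14.2 ± 1.60% in SOX9-Halo_spheroid. Subfamilies E and F held 22.4 ± 2.91% and 42.3 ± 3.70% in the budding and spheroid state of the SOX9-Halo line, at summed levels of 147 ± 16.3 and 173 ± 15.9 FPKM. In the SOX9-mEGFP line they held 23.3 ± 6.37% and 29.1 ± 0.639%, at 144 ± 15.9 and 133 ± 5.84 FPKM. Their level in Halo-NLS was 157 ± 16.1 FPKM (23.8 ± 5.68%). These sums are given as a description and were not tested. In bulk RNA, fewer cells of a type and less RNA per cell cannot be told apart.

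**Figure D1:**
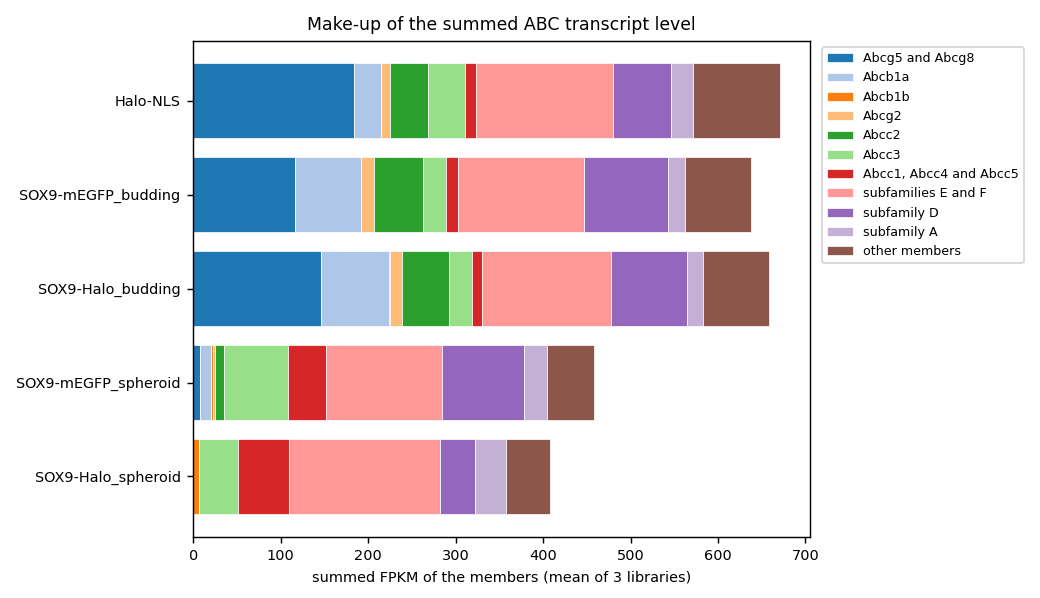
Summed transcript level of the 50 members (x axis, FPKM, mean of 3 libraries) in each of the 5 conditions, stacked by member or group of members. The sum is 671 ± 94.0 FPKM in Halo-NLS and 408 ± 2.08 in SOX9-Halo_spheroid (mean ± SD), where the segment of Abcg5 and Abcg8 is too thin to see.

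Genes were called where edgeR's quasi-likelihood test gave an adjusted p (Benjamini-Hochberg over all genes tested) of 0.01 or less, the log2 fold change was 1 or more in either direction and the normalized count averaged 10 or more over the 15 libraries. From budding organoid to spheroid, 21 of the 37 tested members were called in the SOX9-Halo line (56.8%, 7 higher and 14 lower), where 25.3% of all genes tested were called (10.5% higher and 14.7% lower). The SOX9-mEGFP line had 15 (40.5%, 5 higher and 10 lower), against 16.4% of all genes (8.55% higher and 7.88% lower). The median log2 fold change of the tested members was -0.34 in the SOX9-Halo line and -0.17 in the SOX9-mEGFP line, beside -0.08 and -0.04 for all genes tested. The libraries of both states did not overlap for 28 and 22 of the 37 members, against 52.8% and 46.0% of all genes. These lines share no library, and all 15 members called in the SOX9-mEGFP line were also called in the SOX9-Halo line and in the same direction. Abca4, Abcb1b, Abcc1, Abcc4 and Abcc5 were higher in spheroids, and those that were lower included Abca1, Abcb1a, Abcc2, Abcc6, Abcc8, Abcc9, Abcg2, Abcg5 and Abcg8. These 15 were 71.4% of the calls in the SOX9-Halo line. Over all genes 2301 calls were shared, 2248 of them in the same direction. Counted in any direction, the shared calls were 51.9% of those in the SOX9-Halo line and 79.8% of those in the SOX9-mEGFP line.

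Against Halo-NLS, whose libraries both comparisons share, 19 members were called in SOX9-Halo_spheroid (6 higher and 13 lower), with 28.9% of all genes called (13.6% higher and 15.3% lower), and 17 in SOX9-mEGFP_spheroid (6 higher and 11 lower), with 27.5% of all genes called (15.3% higher and 12.1% lower). The libraries did not overlap for 26 and 23 members, against 54.8% and 56.5% of all genes. With library sizes alone in place of TMM scaling the calls over all genes divided into 3103 higher and 2227 lower for SOX9-Halo_spheroid and 3334 and 1499 for SOX9-mEGFP_spheroid, where TMM gave 2392 and 2682, and 2690 and 2133. The members then divided into 7 higher and 12 lower, and 6 and 9.

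**Figure D2:**
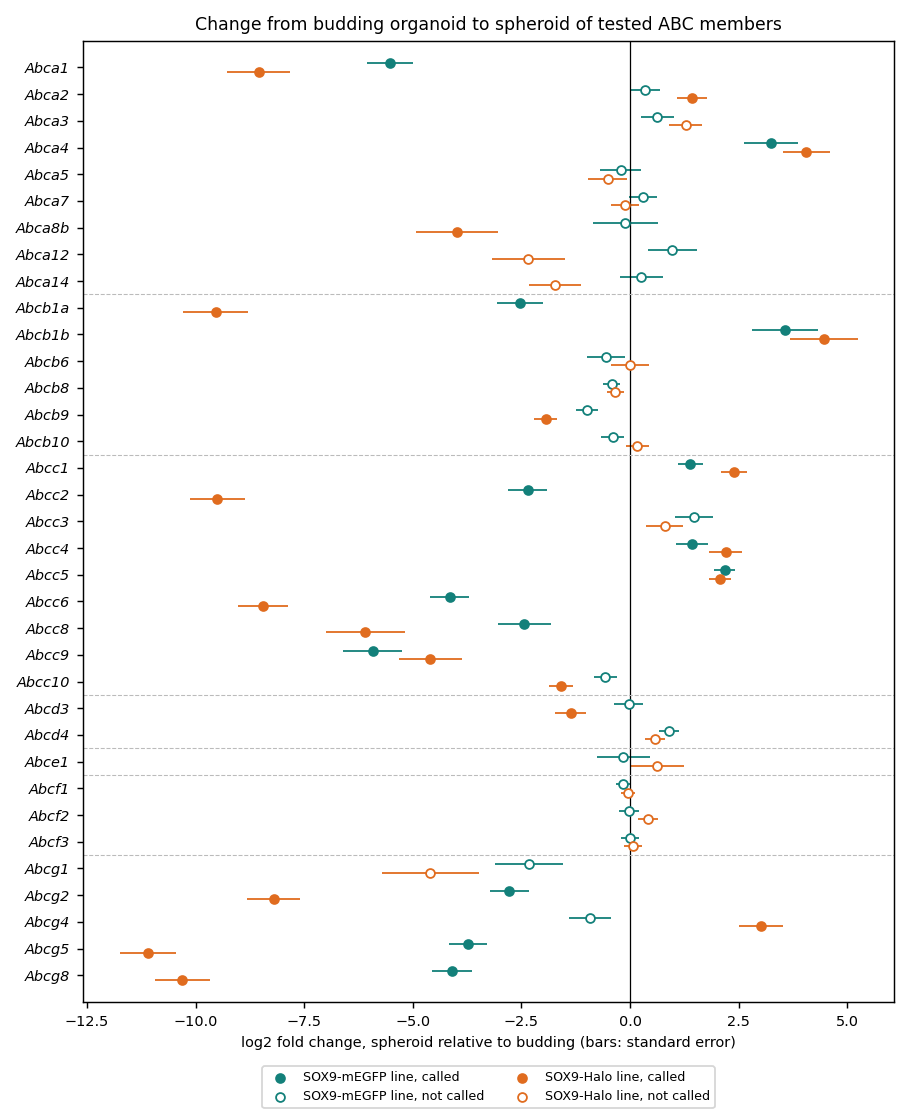
Log2 fold change from budding organoid to spheroid (x axis) of 35 of the 37 tested members (y axis, ordered by subfamily, dashed lines between subfamilies) in the SOX9-mEGFP line (turquoise) and the SOX9-Halo line (orange), with standard errors as bars and filled points where the member was called. Abcg5 stands at -11.09 and -3.73 and Abcb1b at 4.46 and 3.57 in the SOX9-Halo and the SOX9-mEGFP line.

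Abcg5 and Abcg8, Abca1, Abcg1 and Abcg4 move sterols across membranes. ABCG5 and ABCG8 form a heterodimer in the brush border that returns cholesterol and plant sterols to the lumen. Their genes lie head to head on mouse chromosome 17, and in GRCm39 there are 12 bases between the starts of the canonical transcripts, Abcg5 being on the minus and Abcg8 on the plus strand. The annotated spans of both genes overlap through other transcripts. The stretch between the canonical starts is shown because both genes fell together:
Abcg5-Abcg8, chr17:84990440-84990451, plus strand: ttggccaacgat

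Values per library are normalized counts in the order of replicate 1, 2 and 3. For Abcg5 they were 9236, 11526 and 7452 in Halo-NLS, 7461, 7472 and 3456 in SOX9-mEGFP_budding and 9778, 9142 and 5884 in SOX9-Halo_budding. In the spheroids they were 764, 402 and 214 in SOX9-mEGFP_spheroid and 4.74, 1.89 and 4.5 in SOX9-Halo_spheroid. Every SOX9-mEGFP_spheroid library lay below the 9 budding and control libraries, and every SOX9-Halo_spheroid library below those in turn. Abcg8 followed with 9287, 14957 and 12067 in Halo-NLS, 9348, 8150.4 and 4845 in SOX9-mEGFP_budding and 8584, 10783 and 6443 in SOX9-Halo_budding. Its spheroid values were 754, 335 and 210.5 in SOX9-mEGFP_spheroid and 9.48, 2.84 and 8.10 in SOX9-Halo_spheroid, with the same order and no overlap. From budding to spheroid the log2 fold change of Abcg5 was -11.09 ± 0.65 (SE) in the SOX9-Halo line and -3.73 ± 0.44 in the SOX9-mEGFP line, and that of Abcg8 was -10.30 ± 0.63 and -4.10 ± 0.45 (adjusted p at most 1.5e-05, edgeR). In SOX9-Halo_spheroid the raw counts behind these values were 4, 2 and 5 for Abcg5 and 8, 3 and 9 for Abcg8. Abcg5 and Abcg8 share 3.0% and 2.8% of their exon bases with each other, and reads on shared bases were counted for neither gene.

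ABCA1 exports cholesterol to apolipoprotein A-I on the basolateral side of enterocytes. Abca1 had 150.3, 119 and 66.6 in Halo-NLS, 264, 197 and 165 in SOX9-mEGFP_budding and 181, 121 and 207 in SOX9-Halo_budding. The spheroid libraries had 7.10, 5.01 and 0.952 in SOX9-mEGFP_spheroid and 0, 0 and 0.900 in SOX9-Halo_spheroid, again with the 9 budding and control libraries above SOX9-mEGFP_spheroid and those above SOX9-Halo_spheroid. In SOX9-Halo_spheroid a single read was counted in 1 of 3 libraries, and the ratio of SOX9-Halo_budding to SOX9-Halo_spheroid was 512-fold (95% interval of counting error 91.6 to 20274). In the SOX9-mEGFP line the log2 fold change was -5.53 ± 0.53 (SE, adjusted p = 2.2e-06, edgeR). Abcg1, another cholesterol exporter, had at most 20 counts in any library and a mean normalized count under 10, and its log2 fold change of -4.60 in the SOX9-Halo line was not called under this minimum. Abcg4, a close relative of Abcg1 known from neural tissue, was also scarce, with 6.53, 1.15 and 2.51 in Halo-NLS, 20.7, 15.6 and 9.34 in SOX9-mEGFP_budding and 3.18, 3.89 and 4.88 in SOX9-Halo_budding. Its spheroid values were 7.99, 6.01 and 9.52 in SOX9-mEGFP_spheroid and 21.3, 28.4 and 47.7 in SOX9-Halo_spheroid. SOX9-Halo_spheroid lay above SOX9-Halo_budding with no overlap (log2 fold change 3.01 ± 0.50, SE), whereas SOX9-mEGFP_spheroid overlapped SOX9-mEGFP_budding (-0.91 ± 0.48, not called). The call was lost without SOX9-Halo_spheroid replicate 3 (2.56, adjusted p = 0.00206), where the mean normalized count fell below 10. Abcg3 had at most 3 counts in any library and was not tested.

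The enterocyte markers Alpi, Fabp1, Fabp2, Sis, Vil1 and Apoa4 were lower in spheroids, as were Abcg5, Abcg8 and Abca1 but not Abcg4. All 6 were called lower in SOX9-Halo_spheroid and 5 of 6 in SOX9-mEGFP_spheroid against Halo-NLS. From budding to spheroid 6 were called lower in the SOX9-Halo line and 4 in the SOX9-mEGFP line. Their summed level was 5557 to 9589 CPM (counts scaled to library depth) in Halo-NLS, 1814 to 6722 in SOX9-mEGFP_budding, 3985 to 7577 in SOX9-Halo_budding, 898 to 1187 in SOX9-mEGFP_spheroid and 101 to 140.3 in SOX9-Halo_spheroid. The epithelial markers Epcam, Cdh1 and Krt8 summed to 3474 to 5140.4 CPM in Halo-NLS, 3816 to 5199.6 in SOX9-mEGFP_budding, 3008 to 3929 in SOX9-Halo_budding, 6387 to 6547 in SOX9-mEGFP_spheroid and 3245 to 3406 in SOX9-Halo_spheroid. Epcam was called lower in SOX9-Halo_spheroid than in Halo-NLS (-1.11 log2) and SOX9-Halo_budding (-1.07), and Cdh1 and Krt8 were not. Markers of fibroblasts, immune and endothelial cells summed to at most 5.42 CPM per list in any library. The immune markers summed to 2.19 to 5.42 CPM in SOX9-mEGFP_spheroid, 0.155 to 0.217 in SOX9-mEGFP_budding and 0.376 to 2.96 in Halo-NLS. Only 1 immune marker was tested, and it was called higher in SOX9-mEGFP_spheroid than in Halo-NLS (2.33 log2) and SOX9-mEGFP_budding (5.67). The part of the enterocyte marker change in the values of these and the following members was not tested.

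**Figure D3:**
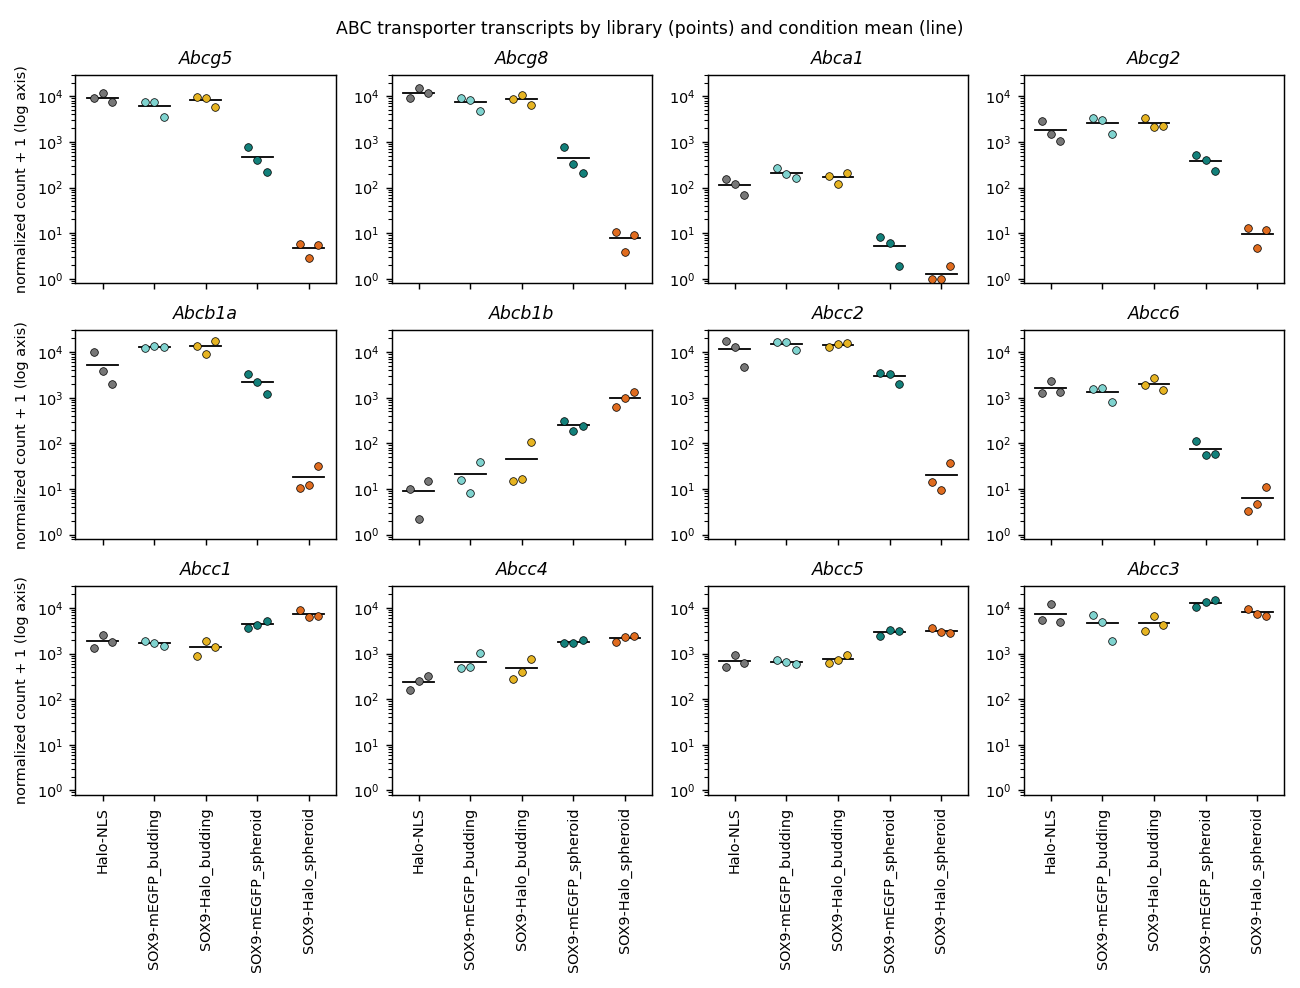
Normalized counts plus 1 (log axis) of 12 members in each library (points) with the mean of the 3 libraries of a condition (line). Abcg5 falls from 8268 ± 2089 (mean ± SD) in SOX9-Halo_budding to 3.71 ± 1.58 in SOX9-Halo_spheroid, and Abcc5 goes from 753 ± 165 to 3172 ± 388.

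Abcb1a and Abcb1b are the 2 mouse genes for P-glycoprotein, which expels a wide range of hydrophobic drugs. They lie next to each other on chromosome 5 in the same orientation, Abcb1a at chr5:8710022-8798575 and Abcb1b at chr5:8847994-8916389 of GRCm39. Their coding sequences were 88.1% identical over the aligned bases, with identical runs of up to 338 bases. Of the 3679 windows of 150 bases in the Abcb1a coding sequence, 214 (5.82%) also occurred in Abcb1b. A read within such a stretch has no unique alignment by its own bases. As fragments were read from both ends, a mate outside the stretch can still place the pair. The 250 bases upstream of the transcript starts are printed here because both hold an AP-1 site (TGANTCA, in capitals) and because the levels of the paralogs went in opposite directions:
Abcb1a, chr5:8709772-8710021, plus strand: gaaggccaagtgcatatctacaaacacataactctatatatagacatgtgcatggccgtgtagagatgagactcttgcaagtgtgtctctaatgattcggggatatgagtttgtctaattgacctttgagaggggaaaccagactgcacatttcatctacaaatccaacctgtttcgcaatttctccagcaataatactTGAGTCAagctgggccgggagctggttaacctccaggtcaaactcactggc
Abcb1b, chr5:8847744-8847993, plus strand: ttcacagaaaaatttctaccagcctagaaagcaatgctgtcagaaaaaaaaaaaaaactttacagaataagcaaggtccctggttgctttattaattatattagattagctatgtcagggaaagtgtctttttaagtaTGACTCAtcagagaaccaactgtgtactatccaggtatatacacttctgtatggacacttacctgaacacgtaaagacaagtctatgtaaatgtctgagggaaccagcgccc

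The AP-1 site starts at base 200 of the Abcb1a window and base 139 of the Abcb1b window. These were the 2 of 50 member windows with this motif, which occurred on either strand in 6.18% of 21757 protein-coding promoter windows of this length. A CCAAT box was in 11 of 50 member windows (36.5% of all), a GC box (GGGCGG) in 17 (36.3%), the SOX core ACAATG in 2 (9.41%) and ACAAAG in 6 (15.9%). The CDX core TTTATG was in 2 (10%) and the HNF4 core CAAAGTCCA in 0 (0.372%). A match is a description of the letters and not of a bound site, and a missing match says nothing about the factor.

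Abcb1a had 10002, 3760.4 and 1987 in Halo-NLS, 12176, 13365 and 12957 in SOX9-mEGFP_budding and 13674, 9075 and 17199 in SOX9-Halo_budding. Values in spheroids were 3257, 2229 and 1181 in SOX9-mEGFP_spheroid and 9.48, 11.4 and 31.5 in SOX9-Halo_spheroid. SOX9-Halo_spheroid lay below all other libraries, while SOX9-mEGFP_spheroid lay below both budding conditions but overlapped Halo-NLS, whose 3 libraries themselves spread from 1987 to 10002. The log2 fold change was -9.54 ± 0.75 (SE, adjusted p = 1.2e-07, edgeR) in the SOX9-Halo line and -2.53 ± 0.53 (adjusted p = 0.00206) in the SOX9-mEGFP line. Abcb1b, the scarcer copy, had 9.15, 1.15 and 13.8 in Halo-NLS, 14.6, 7.27 and 38.2 in SOX9-mEGFP_budding and 14.3, 15.6 and 103 in SOX9-Halo_budding. It reached 313, 186 and 236 in SOX9-mEGFP_spheroid and 630.2, 977 and 1317 in SOX9-Halo_spheroid. Every spheroid library exceeded the 9 budding and control libraries, and SOX9-Halo_spheroid exceeded SOX9-mEGFP_spheroid. The log2 fold change was 4.46 ± 0.77 and 3.57 ± 0.77 (SE) in the SOX9-Halo and SOX9-mEGFP line (adjusted p = 2.5e-04 and 0.00238, edgeR). In the SOX9-mEGFP line the call of Abcb1a was lost without SOX9-mEGFP_spheroid replicate 2 or 3 (-2.26 to -2.57, adjusted p 0.0112 to 0.0129) and that of Abcb1b without SOX9-mEGFP_budding replicate 1 or 2 (3.15 to 3.39, adjusted p 0.0141 to 0.016).

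Per transcript length, Abcb1b made up 0.299 ± 0.403% of the summed FPKM of both genes in Halo-NLS, 0.172 ± 0.137% in SOX9-mEGFP_budding, 0.322 ± 0.295% in SOX9-Halo_budding, 12.1 ± 5.27% in SOX9-mEGFP_spheroid and 98.5 ± 0.557% in SOX9-Halo_spheroid (mean ± SD, n = 3 each). With the length of all annotated exons in place of the canonical transcript, which is 21186 bases for Abcb1b and 6150 for Abcb1a, the shares in SOX9-Halo_spheroid were 92.4% to 96.2% and in SOX9-mEGFP_spheroid 2.37% to 5.49%. The FPKM of Abcb1a was 78.5 ± 24.0 in SOX9-Halo_budding, and that of Abcb1b was 6.35 ± 2.24 in SOX9-Halo_spheroid. Abcb4, the third gene of this cluster and an exporter of phosphatidylcholine into bile, had at most 13 counts in any library and was not tested.

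**Figure D4:**
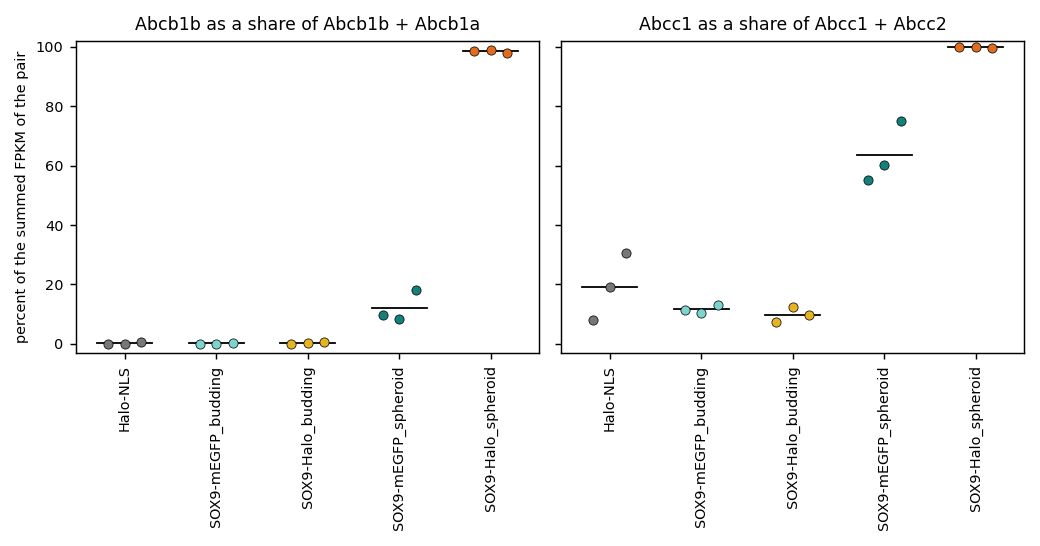
Share of the summed FPKM (y axis, percent) held by Abcb1b of the pair Abcb1a and Abcb1b (left) and by Abcc1 of the pair Abcc1 and Abcc2 (right), with a point for each library and a line at the mean of the 3 libraries. Abcb1b stands at 0.322 ± 0.295% in SOX9-Halo_budding and 98.5 ± 0.557% in SOX9-Halo_spheroid (mean ± SD), and SOX9-mEGFP_spheroid lies between them in both panels.

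ABCG2 exports drugs, sulfated conjugates and urate into the lumen. Abcg2 had 2916, 1498 and 1026 in Halo-NLS, 3389, 2950.1 and 1507 in SOX9-mEGFP_budding and 3426, 2160.0 and 2209.8 in SOX9-Halo_budding. The spheroids held 513, 401 and 226 in SOX9-mEGFP_spheroid and 11.8, 3.78 and 10.8 in SOX9-Halo_spheroid. The order was again budding and control above SOX9-mEGFP_spheroid above SOX9-Halo_spheroid, with no overlap between these 3 sets. Its log2 fold change was -8.20 ± 0.61 (SE) in the SOX9-Halo line and -2.78 ± 0.45 in the SOX9-mEGFP line (adjusted p at most 2.3e-04, edgeR).

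Subfamily C holds the multidrug resistance proteins, which export glutathione, glucuronide and sulfate conjugates. ABCC2 works in the apical membrane. Abcc2 had 17796, 12663 and 4734 in Halo-NLS, 16934, 16554 and 11386 in SOX9-mEGFP_budding and 12685, 15042 and 15575 in SOX9-Halo_budding. In the spheroids it had 3429, 3298 and 2023 in SOX9-mEGFP_spheroid and 13.0, 8.51 and 36.9 in SOX9-Halo_spheroid. All spheroid libraries lay below the budding and control libraries, and Halo-NLS replicate 3 was the lowest of the latter. The log2 fold change was -9.50 ± 0.64 (SE) and -2.36 ± 0.45 in the SOX9-Halo and SOX9-mEGFP line (adjusted p = 3.0e-08 and 1.0e-03, edgeR). ABCC6, whose loss causes pseudoxanthoma elasticum and which releases ATP from cells, is a basolateral member. Abcc6 had 1239, 2267 and 1360.1 in Halo-NLS, 1559, 1654 and 795 in SOX9-mEGFP_budding and 1863, 2638 and 1442 in SOX9-Halo_budding. The spheroid libraries had 114, 55.1 and 56.2 in SOX9-mEGFP_spheroid and 2.37, 3.78 and 9.90 in SOX9-Halo_spheroid, again below all others and lowest in SOX9-Halo_spheroid (-8.45 ± 0.57 and -4.15 ± 0.44).

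The opposite direction was seen for Abcc1, Abcc4 and Abcc5. ABCC1 is the widely expressed basolateral exporter of glutathione conjugates and leukotriene C4. Abcc1 had 1314, 2586 and 1790.0 in Halo-NLS, 1867, 1679 and 1483 in SOX9-mEGFP_budding and 887, 1856 and 1422 in SOX9-Halo_budding. It had 3649, 4289.7 and 5205 in SOX9-mEGFP_spheroid and 8867, 6359 and 6501 in SOX9-Halo_spheroid. The spheroid libraries all exceeded the others, and SOX9-Halo_spheroid exceeded SOX9-mEGFP_spheroid. ABCC4 exports cyclic nucleotides and prostaglandins. Abcc4 had 157, 255 and 313 in Halo-NLS, 492, 497 and 1003 in SOX9-mEGFP_budding and 269.7, 399.9 and 743 in SOX9-Halo_budding, and 1694, 1673 and 1982 in SOX9-mEGFP_spheroid and 1754, 2329.8 and 2413 in SOX9-Halo_spheroid. For Abcc4 the SOX9-mEGFP_budding libraries already lay above Halo-NLS, and the spheroids above both, with the lines overlapping. ABCC5 exports cyclic nucleotides and folates. Abcc5 had 494, 938 and 621 in Halo-NLS, 731, 667 and 585 in SOX9-mEGFP_budding and 621, 702 and 938 in SOX9-Halo_budding. It had 2465, 3349 and 3127 in SOX9-mEGFP_spheroid and 3609, 3034 and 2872 in SOX9-Halo_spheroid, and the spheroids of both lines overlapped above all other libraries. In the SOX9-Halo and the SOX9-mEGFP line the log2 fold changes were 2.38 ± 0.30 and 1.39 ± 0.29 (SE) for Abcc1, 2.20 ± 0.38 and 1.42 ± 0.37 for Abcc4, and 2.07 ± 0.25 and 2.17 ± 0.25 for Abcc5. Their adjusted p (edgeR) was at most 2.4e-04 in the SOX9-Halo line, and in the SOX9-mEGFP line it was 0.00182 for Abcc1, 0.00881 for Abcc4 and 1.2e-05 for Abcc5. In the SOX9-mEGFP line the call of Abcc1 was lost without SOX9-mEGFP_budding replicate 2 or 3 or SOX9-mEGFP_spheroid replicate 3 (1.21 to 1.36, adjusted p 0.0115 to 0.0133). That of Abcc4 was lost without Halo-NLS replicate 2, SOX9-mEGFP_budding replicate 1 or 2, SOX9-mEGFP_spheroid replicate 1, 2 or 3 or SOX9-Halo_spheroid replicate 1, 2 or 3 and with library sizes alone (1.23 to 1.44, adjusted p 0.0106 to 0.0538). Of the summed FPKM of Abcc1 and Abcc2, Abcc1 held 19.2 ± 11.3% in Halo-NLS, 11.7 ± 1.33% in SOX9-mEGFP_budding and 9.89 ± 2.53% in SOX9-Halo_budding. In the spheroids it held 63.5 ± 10.2% in SOX9-mEGFP_spheroid and 99.8 ± 0.211% in SOX9-Halo_spheroid. With the length of all annotated exons these spheroid shares were 37.3% to 59.0% and 99.0% to 99.8%. Which of both genes held more in SOX9-mEGFP_spheroid thus depended on the length used.

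ABCC3, the basolateral exporter of bile acids and glucuronides, had the highest FPKM of the subfamily averaged over all 15 libraries. Its level was 41.6 ± 22.4 FPKM in Halo-NLS and 45.0 ± 8.80 in SOX9-Halo_spheroid (mean ± SD, n = 3), and Abcc2 averaged more in Halo-NLS and both budding conditions. Abcc3 had 5291, 11905 and 4827 in Halo-NLS, 7148, 4859 and 1923 in SOX9-mEGFP_budding and 3039.9, 6549 and 4108 in SOX9-Halo_budding. It had 10673, 13170.5 and 15022 in SOX9-mEGFP_spheroid and 9661, 7476 and 6658 in SOX9-Halo_spheroid. The spheroids exceeded their budding line with no overlap, but neither change was called (0.80 ± 0.43 and 1.48 ± 0.44, adjusted p = 0.162 and 0.019), and Halo-NLS overlapped both spheroid conditions. Of its exon bases 10.4% are shared with another annotated gene. ABCC10 exports lipophilic drugs. Its gene had 925, 1776 and 936 in Halo-NLS, 1336, 1216 and 1012 in SOX9-mEGFP_budding and 1191, 1688 and 1190.2 in SOX9-Halo_budding. In the spheroids Abcc10 had 747, 667 and 987 in SOX9-mEGFP_spheroid and 399, 441 and 512 in SOX9-Halo_spheroid, with SOX9-Halo_spheroid below every other library (-1.59 ± 0.27) and SOX9-mEGFP_spheroid overlapping Halo-NLS (-0.57 ± 0.27 within the line, not called).

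ABCC8 and ABCC9 are the sulfonylurea receptors, regulatory subunits of ATP-sensitive potassium channels, the first in endocrine and the second in muscle and vascular cells. Abcc8 had 35.3, 73.4 and 32.7 in Halo-NLS, 81.4, 59.2 and 30.4 in SOX9-mEGFP_budding and 37.4, 101 and 23.4 in SOX9-Halo_budding. Values in spheroids were 8.87, 5.01 and 17.1 in SOX9-mEGFP_spheroid and 1.18, 0.946 and 0 in SOX9-Halo_spheroid. Abcc9 had 41.8, 37.9 and 39 in Halo-NLS, 60.7, 26 and 50.6 in SOX9-mEGFP_budding and 15.9, 26.3 and 14.6 in SOX9-Halo_budding. The spheroids held 0.887, 1.00 and 0 in SOX9-mEGFP_spheroid and 0, 0 and 1.80 in SOX9-Halo_spheroid, and for both genes no spheroid library reached a budding or control library. As at most 3 reads per library were counted for either gene in SOX9-Halo_spheroid, the ratios of SOX9-Halo_budding to SOX9-Halo_spheroid were 79.6-fold (95% interval of counting error 21.7 to 663) for Abcc8 and 28.2-fold (95% interval of counting error 7.49 to 238) for Abcc9. In the SOX9-mEGFP line Abcc9 also dropped to 1, 1 and 0 counts, a ratio of 72.4-fold (95% interval of counting error 19.7 to 604), and the log2 fold change of Abcc8 was -2.43 ± 0.62 (SE, adjusted p = 0.00763, edgeR), a call lost without SOX9-mEGFP_budding replicate 1 or 2, SOX9-mEGFP_spheroid replicate 1 or 2 or SOX9-Halo_spheroid replicate 1 or 2 (-2.09 to -2.46, adjusted p 0.0103 to 0.0395). The enteroendocrine markers Chga, Chgb and Neurod1 were also all called lower in both spheroid lines. They summed to 341 to 807 CPM in SOX9-mEGFP_budding, 182 to 802 in SOX9-Halo_budding, 0.454 to 2.25 in SOX9-mEGFP_spheroid and 0.197 to 0.353 in SOX9-Halo_spheroid. From budding to spheroid their median log2 fold change was -10.7 in the SOX9-Halo line. In the SOX9-mEGFP line it was -7.81, beside -2.43 for Abcc8. Their part in the change of Abcc8 was not tested. Abcc12 had at most 10 counts in any library and was not tested.

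Among the other members of subfamily A, which move phospholipids, sterols or retinoids, the direction was mixed. ABCA4 flips retinylidene lipids in photoreceptors. Abca4 had 1.31, 1.15 and 2.51 in Halo-NLS, 1.21, 1.04 and 3.11 in SOX9-mEGFP_budding and 0.796, 1.95 and 7.80 in SOX9-Halo_budding. In the spheroids it had 19.5, 17.0 and 21.0 in SOX9-mEGFP_spheroid and 72.3, 63.4 and 39.6 in SOX9-Halo_spheroid, above every other library and highest in SOX9-Halo_spheroid. As its Halo-NLS libraries held at most 2 counts, the ratio of SOX9-Halo_spheroid to Halo-NLS was 34.7-fold (95% interval of counting error 13.3 to 129) and that of SOX9-mEGFP_spheroid 11.7-fold (95% interval of counting error 4.34 to 44.2). The log2 fold change within the line was 4.05 ± 0.54 (SE) for SOX9-Halo and 3.24 ± 0.61 for SOX9-mEGFP (adjusted p = 2.2e-05 and 9.1e-04, edgeR). ABCA2 is linked to sterol traffic in lysosomes and best known from myelinating cells. Its gene had 914, 2131 and 1279.6 in Halo-NLS, 1286, 1187 and 918 in SOX9-mEGFP_budding and 695, 1649 and 1027 in SOX9-Halo_budding. Abca2 reached 1081, 1206 and 1992 in SOX9-mEGFP_spheroid and 2724, 3255 and 3053 in SOX9-Halo_spheroid, where SOX9-Halo_spheroid exceeded the 12 other libraries. It was called within the SOX9-Halo line (1.42 ± 0.35, adjusted p = 0.00399) and not against Halo-NLS (1.06 ± 0.35, adjusted p = 0.0197). The call was lost without SOX9-Halo_budding replicate 1 or 3 or SOX9-Halo_spheroid replicate 2 or 3 (1.17 to 1.39, adjusted p 0.0158 to 0.0231).

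ABCA3, the phospholipid transporter of surfactant lamellar bodies in the lung, was the most abundant member of subfamily A per length (19.5 ± 2.45 FPKM in SOX9-Halo_spheroid, mean ± SD, n = 3). Abca3 had 1500.4, 3651 and 1766 in Halo-NLS, 2114, 1950.1 and 1313 in SOX9-mEGFP_budding and 940.4, 2729 and 1605 in SOX9-Halo_budding. It had 2065, 2505 and 3749.7 in SOX9-mEGFP_spheroid and 3652, 4662 and 4457 in SOX9-Halo_spheroid. SOX9-Halo_spheroid exceeded SOX9-Halo_budding with no overlap, but the change missed the threshold (1.28 ± 0.39, adjusted p = 0.016). In the SOX9-Halo line same-numbered libraries deviated together, and with the replicate number as a block Abca3 passed it (log2 fold change 1.37, adjusted p = 0.00456, edgeR). ABCA12, which fills lamellar granules with glucosylceramide in skin, was high in both SOX9-mEGFP conditions. Abca12 had 1.31, 0 and 10.1 in Halo-NLS, 91.1, 38.4 and 59.2 in SOX9-mEGFP_budding and 11.9, 12.6 and 17.6 in SOX9-Halo_budding. The spheroid libraries had 75.4, 183 and 110.5 in SOX9-mEGFP_spheroid and 3.55, 0 and 4.5 in SOX9-Halo_spheroid. Both SOX9-mEGFP conditions lay above every SOX9-Halo and Halo-NLS library, and the log2 difference between the spheroids of SOX9-Halo and SOX9-mEGFP was -5.46 ± 0.78 (SE, adjusted p = 9.8e-05). In SOX9-mEGFP_budding against Halo-NLS it was called at 4.03 ± 0.77 (adjusted p = 0.00541), a call lost without Halo-NLS replicate 2 or SOX9-mEGFP_budding replicate 1 or 3 and in a fit to the 6 libraries compared (3.43 to 4.07, adjusted p 0.0113 to 0.0401).

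Abca8b and Abca14 were scarce. Abca8b had 9.15, 3.44 and 10.1 in Halo-NLS, 14.6, 12.5 and 9.34 in SOX9-mEGFP_budding and 19.1, 3.89 and 44.9 in SOX9-Halo_budding. Values in spheroids were 8.87, 16 and 8.57 in SOX9-mEGFP_spheroid and 0, 0 and 3.60 in SOX9-Halo_spheroid, below SOX9-Halo_budding in the SOX9-Halo line (-3.99 ± 0.95) with SOX9-Halo_budding spread from 4 to 46 counts, and -0.11 ± 0.74 in the SOX9-mEGFP line, not called. Abca14 had 18.3, 10.3 and 11.3 in Halo-NLS, 30.4, 15.6 and 17.1 in SOX9-mEGFP_budding and 25.5, 11.7 and 9.76 in SOX9-Halo_budding. The spheroids held 10.6, 30.0 and 34.3 in SOX9-mEGFP_spheroid and 5.92, 1.89 and 6.30 in SOX9-Halo_spheroid, where SOX9-Halo_spheroid lay below the 12 other libraries and the difference from SOX9-mEGFP_spheroid was called (-2.38 ± 0.58). In fits to the SOX9-Halo_budding and SOX9-Halo_spheroid libraries alone, Abca8b did not pass the filter on low counts and had no call. The call of Abca8b was lost without SOX9-Halo_budding replicate 3 or SOX9-Halo_spheroid replicate 1 or 2 (-3.03 to -3.53, adjusted p 0.0154 to 0.0219). That of Abca14 was lost without SOX9-mEGFP_budding replicate 2, SOX9-mEGFP_spheroid replicate 2 or 3 or SOX9-Halo_spheroid replicate 1, 2 or 3 (-2.00 to -2.70, adjusted p 0.0101 to 0.0447). Abca5 and Abca7, the latter a phospholipid transporter of phagocytes and many tissues, were tested and called in no comparison, with log2 fold changes of -0.97 to 1.28 over the 8 pairwise comparisons. The other 7 members of the subfamily (Abca6, Abca8a, Abca9, Abca13, Abca15, Abca16 and Abca17) had at most 10 counts in any library and were not tested.

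The smaller members of subfamily B serve organelles. ABCB8 lies in the inner mitochondrial membrane and its gene had the highest FPKM of the subfamily averaged over all 15 libraries (64.3 ± 10.9 FPKM in Halo-NLS), although Abcb1a averaged more in both budding conditions. Abcb8 had 5807, 7987 and 7875 in Halo-NLS, 4644, 5079.8 and 3991 in SOX9-mEGFP_budding and 3402, 5125 and 4009.7 in SOX9-Halo_budding. In the spheroids it had 3613, 3040.0 and 3579 in SOX9-mEGFP_spheroid and 3147, 3489 and 3288 in SOX9-Halo_spheroid. All 12 SOX9 libraries lay below the 3 Halo-NLS libraries, and the log2 fold change against Halo-NLS was -1.13 ± 0.19 (SE) in SOX9-Halo_spheroid, -1.08 ± 0.19 in SOX9-mEGFP_spheroid, -0.79 ± 0.19 in SOX9-Halo_budding and -0.66 ± 0.19 in SOX9-mEGFP_budding. The first 2 were called (adjusted p = 2.1e-04 and 3.8e-04, edgeR). They fell under the fold threshold with library sizes alone (-0.83, adjusted p = 0.00126) for SOX9-Halo_spheroid and without Halo-NLS replicate 2 and with library sizes alone (-0.82 to -0.99, adjusted p 0.00168 to 0.00238) for SOX9-mEGFP_spheroid. ABCB9 is a lysosomal peptide transporter. Abcb9 had 664, 1144 and 960.4 in Halo-NLS, 702, 835 and 649 in SOX9-mEGFP_budding and 654, 914 and 571 in SOX9-Halo_budding. The spheroid libraries had 438, 268 and 389.5 in SOX9-mEGFP_spheroid and 201, 187 and 167 in SOX9-Halo_spheroid, below all other libraries and lowest in SOX9-Halo_spheroid (-1.94 ± 0.27 in the SOX9-Halo line, called, and -0.99 ± 0.26 in the SOX9-mEGFP line, just under the fold threshold at an adjusted p of 0.00898). Abcb6 and Abcb10, transporters linked to haem, were called in no comparison. Abcb6 and Abcb10 share 60.4% and 21.7% of their exon bases with other annotated genes, so their counts cover part of each gene. Abcb5 and the bile salt export pump gene Abcb11 had at most 3 and 9 counts in any library and were not tested.

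Most members of subfamily D bring fatty acids into peroxisomes. ABCD3, which imports branched-chain fatty acids and bile acid precursors, was the most abundant member of the subfamily per length. Abcd3 had 8685, 5055 and 2552 in Halo-NLS, 12610.5, 11500.2 and 6815 in SOX9-mEGFP_budding and 9603, 9053 and 9162 in SOX9-Halo_budding. It had 11172, 11420.2 and 7569 in SOX9-mEGFP_spheroid and 4195, 3425 and 3155 in SOX9-Halo_spheroid. SOX9-Halo_spheroid lay below the 9 other SOX9 libraries and overlapped Halo-NLS, where replicate 3 was the lowest of all 15. The change was called within the SOX9-Halo line (-1.37 ± 0.35, adjusted p = 0.00529) and between the spheroids of both lines (-1.49 ± 0.35, adjusted p = 0.00569). The first call was lost without SOX9-Halo_budding replicate 1, 2 or 3 or SOX9-Halo_spheroid replicate 1, 2 or 3 (-1.34 to -1.49, adjusted p 0.0115 to 0.022), and the second without SOX9-Halo_budding replicate 3, SOX9-mEGFP_spheroid replicate 1 or 2 or SOX9-Halo_spheroid replicate 1, 2 or 3 (-1.39 to -1.61, adjusted p 0.0113 to 0.0318). Abcd4, a lysosomal exporter of vitamin B12, was not called in any comparison, with a log2 fold change of 0.90 ± 0.22 in the SOX9-mEGFP line at an adjusted p of 0.00675. Abcd2 had at most 3 counts in any library and was not tested.

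The soluble members of subfamilies E and F do not transport. ABCE1 splits ribosomes after termination, and ABCF1 takes part in translation initiation. None of the 4 genes was called in any of the 9 comparisons. Abcf1, which had the highest FPKM of the 50 members averaged over all 15 libraries but ranked first of them only in SOX9-Halo_spheroid, had 7013, 8706 and 9087 in Halo-NLS, 6799, 7019 and 7562 in SOX9-mEGFP_budding and 6586, 7660.2 and 7701 in SOX9-Halo_budding. It had 6501, 6221 and 6280.2 in SOX9-mEGFP_spheroid and 6119, 7482 and 7724 in SOX9-Halo_spheroid. The log2 fold changes of Abcf1, Abcf2 and Abcf3 over the 8 pairwise comparisons ran from -0.62 to 0.48. Abce1 had 4056, 406 and 1242 in Halo-NLS, 3072, 4456 and 6132 in SOX9-mEGFP_budding and 5026, 1419 and 6508 in SOX9-Halo_budding. It had 4102, 4526 and 3627 in SOX9-mEGFP_spheroid and 6129.8, 6173 and 7629.8 in SOX9-Halo_spheroid. SOX9-Halo_spheroid lay above Halo-NLS with no overlap (1.81 ± 0.63, adjusted p = 0.0283, not called), and Halo-NLS replicate 2 was the lowest of all 15 libraries. Without Halo-NLS replicate 1 the log2 fold change was 3.03 (adjusted p = 7.2e-04, called), and that of SOX9-mEGFP_spheroid against Halo-NLS was 2.32 (adjusted p = 0.0037, called) in place of 1.10 ± 0.62.

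The 2 spheroid conditions were compared directly and by the difference between the lines in the change from budding to spheroid. Of the 37 tested members, 10 differed between SOX9-Halo_spheroid and SOX9-mEGFP_spheroid (1 higher and 9 lower in SOX9-Halo_spheroid), against 13.2% of all genes (3.59% higher and 9.58% lower). They were Abcg4, which was higher, and Abca12, Abca14, Abcb1a, Abcc2, Abcc6, Abcd3, Abcg2, Abcg5 and Abcg8. The call of Abcg4 (2.04 ± 0.46, SE, adjusted p = 0.00429, edgeR) was lost without SOX9-mEGFP_spheroid replicate 1, 2 or 3 or SOX9-Halo_spheroid replicate 2 or 3 (1.64 to 2.19, adjusted p 0.0122 to 0.04). The libraries of both spheroids did not overlap for 26 members, against 48.6% of all genes. The change itself differed between the lines for 7 members (1 higher and 6 lower), against 7.39% of all genes (1.81% higher and 5.58% lower). The exporters Abcg5, Abcg8, Abcg2, Abcb1a, Abcc2 and Abcc6 fell further in the SOX9-Halo line, by a log2 difference of -4.30 ± 0.66 (SE) for Abcc6 to -7.36 ± 0.72 for Abcg5 (adjusted p at most 4.0e-04, edgeR). Each of these 6 was called lower in both lines. As the lines also differed in time in culture and spheroid progress, the deeper fall cannot be told apart from either. For Abcg4 the difference was positive (3.92 ± 0.70, adjusted p = 0.00135), a call lost without SOX9-Halo_spheroid replicate 3 (3.51, adjusted p = 0.00638). The differences between the lines for the members that rose in both were 1.00 ± 0.40 for Abcc1, 0.78 ± 0.52 for Abcc4, -0.10 ± 0.34 for Abcc5, 0.90 ± 1.00 for Abcb1b and 0.81 ± 0.95 for Abca4, none of them called (adjusted p from 0.132 to 0.908). All 6 enterocyte markers, all 3 goblet markers (Muc2, Tff3 and Fcgbp) and all 3 Paneth markers (Lyz1, Defa24 and Mmp7) were also called lower in SOX9-Halo_spheroid than in SOX9-mEGFP_spheroid, as were 2 of 3 epithelial markers (Epcam, -1.19, and Krt8, -1.17). The goblet markers summed to 1883 to 3304 CPM in SOX9-mEGFP_spheroid and 15.8 to 22.2 in SOX9-Halo_spheroid, and the Paneth markers to 1116 to 1354 and 0.917 to 1.34. The Paneth sum does not stand for each marker. In SOX9-mEGFP_spheroid 2 of the 3 were called lower and 1 higher than in Halo-NLS (median log2 fold change -5.68). The same numbers were called within that line (-5.34). The part of all these markers in the differences of the members was not tested.

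In the budding organoids few members were called. In SOX9-Halo_budding against Halo-NLS edgeR called 0 of the 37, against 3.75% of all genes (2.49% higher and 1.26% lower), with 13 members at an unadjusted p under 0.05 and 0 called by DESeq2. In SOX9-mEGFP_budding against Halo-NLS it called 1 (Abca12, higher), against 2.76% of all genes (1.99% higher and 0.763% lower), with 11 members at an unadjusted p under 0.05 and 2 called by DESeq2. The libraries did not overlap for 8 and 9 members, against 29.7% and 32.6% of all genes. With library sizes alone the calls over all genes divided into 1069 higher and 109 lower and into 620 and 108, where TMM gave 438 and 221, and 350 and 134. The counts of members rose when 1 control library was left out. Abcb1a and Abce1 had 10002 and 4056 normalized counts in Halo-NLS replicate 1, and at most 3760.4 and 1242 in the other 2. Without that replicate, members called higher in SOX9-Halo_budding included Abcb1a, Abcd3 and Abce1, by log2 1.29 to 2.40, and those called higher in SOX9-mEGFP_budding included the same 3 and Abcg4, by log2 1.44 to 2.97. Between SOX9-Halo_budding and SOX9-mEGFP_budding edgeR called 0 of the 37, against 0.456% of all genes (0.290% higher and 0.165% lower), with 3 members at an unadjusted p under 0.05 and 0 called by DESeq2. The libraries did not overlap for 2 members, against 12.0% of all genes.

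Genes that act with ABC transporters were counted in lists, each against 25.3% and 16.4% of all genes called from budding to spheroid in the SOX9-Halo and the SOX9-mEGFP line and a median of -0.08 and -0.04. Of 17 tested nuclear receptors and other regulators of ABC genes, 8 were called lower and 2 higher in the SOX9-Halo line (median log2 fold change -0.21), and 5 lower and 1 higher in the SOX9-mEGFP line (-0.45). Hnf4a, a regulator of enterocyte genes, averaged 33091 normalized counts in SOX9-Halo_budding and 1611 in SOX9-Halo_spheroid (-4.36 log2, called). The sterol regulator Srebf2 and the oxidative stress regulator Nfe2l2 stood at 0.53 and 0.32, not called. Of 14 tested genes of sterol, bile acid and lipid handling, 8 were called lower and 0 higher in the SOX9-Halo line (median log2 fold change -4.59), and 3 lower and 2 higher in the SOX9-mEGFP line (-0.66). Mttp, which loads lipid onto apolipoprotein B, and Apoa1, an acceptor of ABCA1-exported cholesterol, stood at -7.56 and -10.14 in the SOX9-Halo line (both called).

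Of 18 conjugating enzymes, which make the substrates of ABCC and ABCG2 exporters, 11 were called lower and 2 higher in the SOX9-Halo line (median log2 fold change -3.12), and 6 lower and 2 higher in the SOX9-mEGFP line (-1.05). The glutathione transferase genes Gstm1, Gstm3 and Gsta4 stood at -2.66, -9.41 (both called) and -0.89 (not called) in the SOX9-Halo line. Of 17 partners and cofactors, 4 were called lower and 3 higher in the SOX9-Halo line (median log2 fold change -0.36), and 2 lower and 3 higher in the SOX9-mEGFP line (-0.29). Ezr, whose product ezrin ties apical exporters to actin, was called higher in both lines (1.17 and 1.03), whereas Npc1l1, the cholesterol importer facing ABCG5 and ABCG8, was called lower in the SOX9-Halo line (-8.80). The genes of haem and iron-sulfur cluster synthesis and transport that were tested numbered 16, of which 1 were called lower and 1 higher in the SOX9-Halo line (median log2 fold change -0.27), and 0 lower and 1 higher in the SOX9-mEGFP line (-0.23). Of 16 genes of peroxisomal beta-oxidation, 5 were called lower and 0 higher in the SOX9-Halo line (median log2 fold change -0.92), and 3 lower and 1 higher in the SOX9-mEGFP line (-0.39). Of 13 translation factors, edgeR called 0 in either line, with 0 and 1 at an unadjusted p under 0.05 and 0 called by DESeq2, and median log2 fold changes of 0.07 and 0.06.

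Of the superfamily genes with other symbols, Cftr, the chloride channel of the cystic fibrosis locus, averaged 386 normalized counts in Halo-NLS, 1795 in SOX9-mEGFP_budding, 2288 in SOX9-Halo_budding, 1206 in SOX9-mEGFP_spheroid and 8.57 in SOX9-Halo_spheroid. It was called higher in SOX9-Halo_budding than in Halo-NLS (2.57 ± 0.55, SE, adjusted p = 0.00892), at 2.22 ± 0.54 in SOX9-mEGFP_budding (adjusted p = 0.0192, not called). From budding to spheroid it fell by 8.03 ± 0.74 on the log2 scale in the SOX9-Halo line and stood at -0.57 ± 0.52 in the SOX9-mEGFP line (not called), and the difference between the lines was called (-7.46 ± 0.87). Tap1 and Tap2 form the transporter that feeds antigen peptides to major histocompatibility complex class I. Tap1 was called higher in the spheroids of both lines (1.66 ± 0.25 and 1.19 ± 0.24), and Tap2 stood at 0.24 ± 0.33 and 1.09 ± 0.33, not called.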

How the data were processed

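Poly-A RNA of 15 organoid libraries was sequenced by the authors, who trimmed the reads with cutadapt 4.5, aligned them to GRCm39 (mm39) with STAR (version not given in the sources used here), keeping unique alignments only, and counted them per gene with HTSeq 2.0.2 in union mode without regard to strand. The deposited counts per gene and library are whole numbers and were used as deposited, matched to conditions through the sample titles. The authors' table of normalized counts and their 7 comparison tables (fold changes and p-values from DESeq2) were not used.

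The lines of the count files that name no gene were left out; reads without a feature were 1.83% to 6.10% and ambiguous reads 9.65% to 13.6% of all reads listed for a library. Gene counts per library ran from 28062722 to 40559766, and logged counts of replicates correlated at 0.959 to 0.997. Counts of all genes were fitted with edgeR 4.0.16 (R 4.3.3, limma 3.58.1) with TMM scaling, filterByExpr, 1 coefficient for each of the 5 conditions and the quasi-likelihood test. Called genes had an adjusted p of 0.01 or less, a change of at least 1 on the log2 scale and an average normalized count of 10 or more. The test script was tested on simulated data. FPKM were computed from the counts, effective library sizes and canonical transcript lengths of the GRCm39 annotation, which is also the source of coordinates and promoter windows (Python 3.11.15, pandas 2.3.3, numpy 2.4.6, Biopython 1.88, matplotlib 3.10.9). Where a group held at most 3 counts per library, ratios of summed counts carry an exact 95% interval, which covers counting error only.

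The 9 comparisons were 8 between pairs of conditions and 1 of the difference between the lines in the change from budding to spheroid. Members with a call in any of them and the most abundant member of each subfamily per length are given per library, and the others by range. Some genes are not reported here, although the counts over members and lists include them. The members and the lists of related genes and markers were chosen with earlier results of these data known. Alternatives were DESeq2 1.42.0, its size factors, library sizes alone, no filter on low counts, an adjusted p of 0.05 with no minimum fold, the libraries compared alone, a replicate block and each library left out in turn. Same-numbered libraries deviated together in every pair only between SOX9-Halo_budding and SOX9-Halo_spheroid among the pairwise comparisons (r = 0.406, 0.269 and 0.379 over 15719 genes), so the replicate block is given beside results of that line where it changes a call.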

Additional observations from a re-analysis of the deposited data

Results flagged for a closer look

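The change from budding organoid to spheroid was tested for a difference between the SOX9-Halo and the SOX9-mEGFP line, and 7 members passed this test (edgeR, adjusted p of 0.01 or less). Of these, 6 fell further in the SOX9-Halo line, with a log2 difference of -7.36 for Abcg5, -7.14 for Abcc2, -7.01 for Abcb1a, -6.20 for Abcg8, -5.42 for Abcg2 and -4.30 for Abcc6. For Abcg4 the difference was 3.92, with a rise called in the SOX9-Halo line and no call in the SOX9-mEGFP line. These differences cannot be told apart from time in culture or spheroid progress, which also differed between the lines. With 3 libraries per condition, no library was tested for standing apart from its group.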

How the results depend on the processing

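Of 90 called values of single members, 69 kept their call and direction under every alternative run, and 0 reversed. Over all 1999 alternative values of these calls, 1910 kept the call and 89 lost it, most often for Abcc8, Abcd3 and Abcc4. Fits in which Abca8b was not tested gave no value and are not counted as lost. The counts of members called kept within 1.5 times their value in the spheroid comparisons with Halo-NLS and within both lines. With each library left out in turn, they ran from 18 to 21 for SOX9-Halo_spheroid and from 15 to 18 for SOX9-mEGFP_spheroid against Halo-NLS, from 18 to 22 within the SOX9-Halo line, from 10 to 15 within the SOX9-mEGFP line (10 without SOX9-mEGFP_budding replicate 2), from 7 to 11 between the spheroids and from 6 to 7 for the difference between the lines.

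The counts in budding organoids moved most. They ran from 0 to 4 for SOX9-Halo_budding and from 0 to 6 for SOX9-mEGFP_budding against Halo-NLS, both highest without Halo-NLS replicate 1, and stayed at 0 between the budding conditions. Without the filter on low counts they were 4 and 5 against Halo-NLS and 1 (Abca12) between the budding conditions, and the difference between the lines had 11 calls. At an adjusted p of 0.05 with no minimum fold they were 1 (Abcb8) and 4, and the spheroids differed in 18. In SOX9-mEGFP_budding against Halo-NLS, DESeq2 called 2, a fit to the 6 libraries compared called 0 and the replicate block called 2. The cause of these differences was not tested.

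The replicate block raised the count within the SOX9-Halo line from 21 to 22 by adding Abca3. In a fit with the block to its 6 libraries Abca3 was also called (1.36, adjusted p = 0.00333, edgeR). The count there was 21, as Abca8b was not tested in that fit. In the other pairwise comparisons not all same-numbered libraries deviated together, although some did. For Halo-NLS and SOX9-Halo_budding r was 0.446, 0.791 and -0.095 in replicates 1, 2 and 3. For SOX9-mEGFP_budding and SOX9-Halo_budding it was 0.03, 0.345 and 0.721. The block gave 20 and 16 calls for the spheroids against Halo-NLS. Library sizes alone moved the median log2 fold change of all genes to 0.277, 0.29, 0.309 and 0.27 in the comparisons of SOX9-Halo_spheroid, SOX9-mEGFP_spheroid, SOX9-Halo_budding and SOX9-mEGFP_budding with Halo-NLS and to -0.122 for the difference between the lines, and 6 higher and 13 lower members in SOX9-Halo_spheroid became 7 and 12. Members with fewer than 10 normalized counts on average cannot be called, and the 13 untested members are not shown to be absent.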
